A study of Homo sapiens with 6 samples.

Results

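The mitochondrial ribosomal proteins are the building blocks of the ribosome inside mitochondria. They were taken here as every gene with a RefSeq messenger row whose current symbol is MRPL or MRPS, a number and an optional letter. Of 11227 named genes in the tables, 77 met the rule in each of the 3 tables, and each gene is described by the row with the most summed depth. The large subunit accounts for 51 of them, counting MRPS18A and MRPS30, which sit in the large subunit despite their names, and the small subunit for 26.

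The mitochondrial ribosome translates the few proteins encoded by mitochondrial DNA, all of which are core subunits of the respiratory chain and the ATP synthase. Its own proteins are encoded in the nucleus, made by cytosolic ribosomes and imported, in most cases with the help of an N-terminal targeting sequence. Footprints on their messengers therefore report how much cytosolic translation goes into making the mitochondrial ribosome, not what that ribosome does. Some of its proteins have a counterpart in the bacterial ribosome and others were added in the mitochondrial lineage.

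Ribosome-protected fragments came from CHL-1, an established human melanoma line, in 6 libraries that form 3 groups of 2. Cells of the AZC + MG132 group were exposed for 20 minutes to 10 mM AZC, a proline analog that is built into new proteins, and 20 µM MG132, a proteasome inhibitor. The CRISPR group was edited at SNORD50A/B, genes of box C/D small nucleolar RNAs, which guide chemical modification of other RNAs. The parental group was neither edited nor treated. In every group 1 of the libraries is labelled as having ribosomal RNA removed. No line carried through editing with a control guide is among the samples, the labels do not say whether the edited line is a clone, and they do not say from which cells the treated group was grown beyond the name CHL-1. The values are 1 table per condition that pools its 2 libraries with no column for either, so there is no replicate error, no test and no p-value. Every difference below is between 3 tables.

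Each table gives 400 bins per transcript, of which 100 were read as 5′ UTR, 200 as coding sequence and 100 as 3′ UTR. In units of 1000000, summed depth was 367.3 after AZC + MG132, 586.5 in the CRISPR table and 473.7 in the parental table, and coding bins held 78.1%, 84.8% and 85.6% of it in that order. The labels do not say how depth relates to fragments, so the number of fragments behind a value is unknown. In the median member 97.5% of the coding bins were covered after AZC + MG132, 90.5% in the CRISPR table and 99% in the parental table, so the CRISPR table, although the deepest, was the patchiest. Of 10 melanocyte and melanoma markers 8 were listed, with summed levels of 650, 672 and 704 in the AZC + MG132, CRISPR and parental tables. In the same order, 5, 6 and 4 of the 8 exceeded the depth minimum given below. SOX10 was the highest at 322.5, 352.5 and 395.7. TYR and TYRP1 had no row, and PMEL was listed at 0 in the CRISPR table. Of 14 markers of keratinocytes, leukocytes, endothelium and simple epithelium 3 were listed, and these summed to 25.8, 20.8 and 32.8. Of these 3, 2 exceeded the minimum in each table. The leukocyte marker PTPRC was at 0 after AZC + MG132 and in the parental table.

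The level of a gene below is its normalised depth, meaning how much of every 1000000 of a table's depth fell into its 400 bins. A coding level uses the 200 coding bins and their total alone. Both are shares of all footprints, so more messenger and more ribosomes per messenger cannot be told apart, nor can fewer cells making a messenger and less of it per cell. Levels of different members are not compared, because their coding lengths were not used here. A log2 ratio adds 0.5 to each depth, and a gene entered a comparison if its depth exceeded a minimum in the tables of both conditions, set at the lower quartile of transcript depths: 2614 for AZC + MG132, 3696 for CRISPR and 3187 for parental. A difference of 2-fold, or 1 on the log2 scale, is used as a limit of size.

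The starts of a few messengers are shown because a motif found at most starts of cytosolic ribosomal protein genes was found at few starts of mitochondrial ones. Messengers of the cytosolic ribosome typically begin with a C followed by a run of pyrimidines, the TOP motif, through which cells tune their translation under stress. RefSeq promoter windows of build GRCh38.p14 were at hand for 69 of the 77 members. A C followed by 4 pyrimidines at the annotated start was found in 6 of these 69, or 8.7%, in 69.6% of 69 cytosolic ribosomal protein genes and in 6.24% of all 15843 protein-coding genes. The following 30 bases surround the annotated start, 15 on either side, with capitals marking the unbroken pyrimidine run that begins at the start. MRPL27 and MRPS15 had the highest and the lowest ratio after AZC + MG132, and MRPS21 the lowest in the CRISPR table. MRPL44 and MRPL53 are 2 of the 6 members that begin with the motif, and each was among the 5 highest of a comparison. The other members with the motif, MRPL45, MRPS2, MRPS27 and MRPS33, had log2 ratios of −0.29, 0.009, −0.11 and 0.10 after AZC + MG132. RPL12, RPLP1 and RPS12 are the cytosolic genes that were more than 2-fold lower after AZC + MG132. MRPL27 lies at chr17:50373170-50373199 on the minus strand, MRPS15 at chr1:36464370-36464399 (minus), MRPS21 at chr1:150293846-150293875 (plus), MRPL44 at chr2:223957448-223957477 (plus) and MRPL53 at chr2:74472666-74472695 (minus). RPL12 lies at chr9:127451392-127451421 (minus), RPLP1 at chr15:69452803-69452832 (plus) and RPS12 at chr6:132814554-132814583 (plus).
MRPL27: ttcgagaccggaagtgagtgatcgaaagca
MRPS15: tccggtattgcaactgcctcgattggtcga
MRPS21: tccgcttccggtagtgagaacccttccggt
MRPL44: gtcttccatcgttttCTCTCgtgcaatggc
MRPL53: ccgcctgcacgagttCTTCCggggcggagg
RPL12: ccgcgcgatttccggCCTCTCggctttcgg
RPLP1: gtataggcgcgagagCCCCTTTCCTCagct
RPS12: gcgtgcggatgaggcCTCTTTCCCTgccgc

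Upstream of the start, some members shared a further motif. The ETS-type motif CCGGAAG, bound by factors such as GABPA (also called NRF2), which drives nuclear genes for mitochondria, was present on either strand in the 250 bases before the start of 25 members, or 36.2%. The share was 33.3% among cytosolic ribosomal protein genes and 14% among all protein-coding genes. The palindromic motif of NRF1, the other classical regulator of nuclear mitochondrial genes, was found in 9 members, or 13%, against 11.6% of cytosolic ribosomal protein genes and 8.72% of all. Only MRPL30 held both among the members with a window. A CCAAT box was in 30.4% of members, 30.4% of cytosolic ribosomal protein genes and 40.2% of all genes, and a TATAAA in 2.9%, 10.1% and 11.9%. A match is a run of letters and not evidence of binding. The windows below show the ETS motif in capitals in some members that stood at an end of a comparison, and the NRF1 motif in MRPL34 and MRPL57. MRPS18C, also at an end, had an ETS match that is not shown. Other members at an end had none, among them MRPS14, MRPL44 and MRPL16 at the high ends and MRPS15, MRPL37 and MRPL50 at the low ones. A link between the motif and the ratios was not tested. MRPL27 is at chr17:50373219-50373248 (minus), MRPL53 at chr2:74472735-74472764 (minus), MRPL43 at chr10:100987498-100987527 (minus), MRPS10 at chr6:42217866-42217895 (minus), MRPS12 at chr19:38930924-38930953 (plus) and MRPS21 at chr1:150293831-150293860 (plus). MRPL34 is at chr19:17305623-17305652 (plus) and MRPL57 at chr13:21176574-21176603 (plus).
MRPL27: gccacgcagggcCCGGAAGtagatctcctg
MRPL53: agcagccggcggCCGGAAGtctatcccgca
MRPL43: gtcgtcccggaaCCGGAAGcctcgaggttt
MRPS10: gccgctgtaaccCCGGAAGcaatcctgaga
MRPS12: ctgcacggatagcgcCCGGAAGaggctaga
MRPS21: ggcgattccgtaatttccgCTTCCGGtagt
MRPL34: agataatgccttgtGCGCACGCGCttgctc
MRPL57: cctcggctctGCGCAGGCGCagtcctctct

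After AZC + MG132 the messengers of the mitochondrial ribosome held a slightly higher share of footprints than in the parental table, and those of the cytosolic ribosome a lower one. Of 77 members 76 were compared and none differed by 2-fold. Across all 7279 genes compared, 0.866% were higher by 2-fold or more and 2.39% were lower, together 3.26%, so a count of 0 among 76 is near the background. The median log2 ratio of the members was 0.12 (interquartile range −0.14 to 0.29), against −0.05 (−0.32 to 0.21) over all genes. Ratios above 0 were found in 49 of 76 members, with 44.7% of all genes above 0. Their summed level was 3462 in the AZC + MG132 table and 3263 in the parental table, a log2 ratio of 0.09. The 84 listed cytosolic ribosomal protein genes summed to 36966 in the AZC + MG132 table and 44821 in the parental table, a log2 ratio of −0.28. Of the 83 of them compared, 17 were above 0, their median was −0.26 and 3 were 2-fold or more lower. Nuclear-encoded subunits of the respiratory chain and ATP synthase, which work beside the products of the mitochondrial ribosome, had a median of 0.16 with 54 of 79 above 0.

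The coding bins gave nearly the same picture as all bins. There the median of the members was 0.13, with 48 of 76 above 0 and 47.9% of all genes above 0. No member reached 2-fold over coding bins either, which 4.15% of all genes did. The first 100 coding bins had a median log2 ratio of 0.26 over the members and the last 100 a median of 0.0045. In 30 members both sets of bins were above 0, in 16 both were below and in 30 they differed in sign. Over the 7279 genes compared the same counts were 2061, 2474 and 2744. The difference of the members was thus larger in the first 100 coding bins, whereas over all genes the same medians were −0.03 and −0.04.

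**Figure D1:**
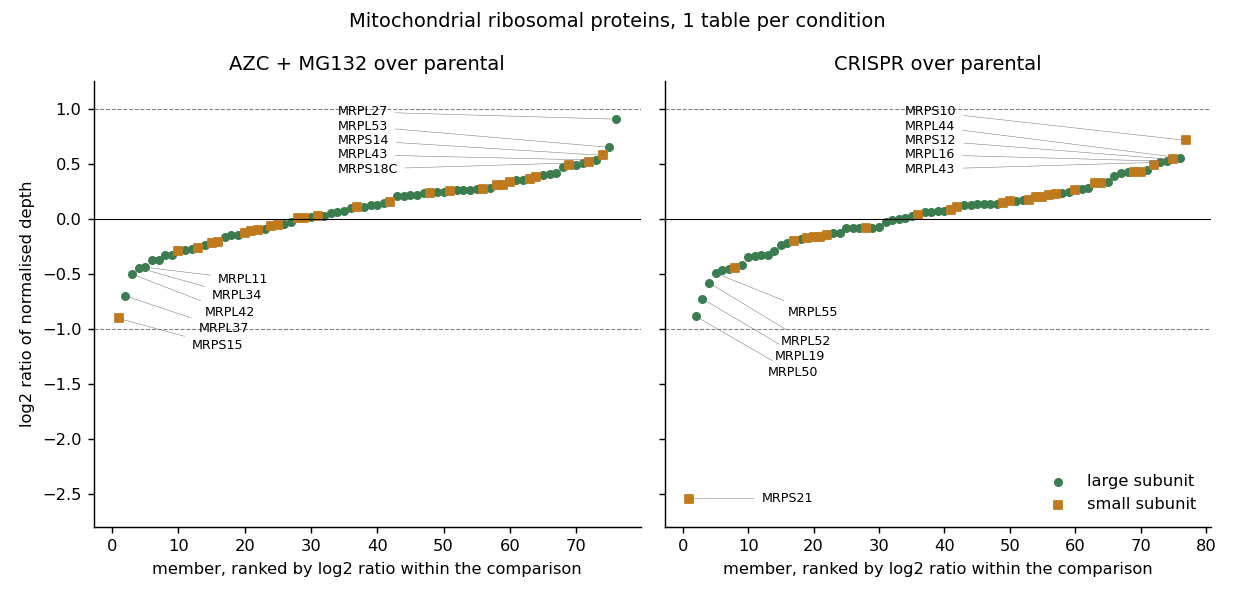
Log2 ratio of normalised depth of each mitochondrial ribosomal protein, AZC + MG132 over parental (left, 76 members) and CRISPR over parental (right, 77 members), ranked within each panel. Circles are large-subunit and squares small-subunit proteins, dashed lines mark 2-fold, and the 5 highest and 5 lowest are named. All members in the left panel lie within 2-fold, and in the right panel MRPS21 alone lies outside.

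Among large-subunit proteins with a bacterial counterpart, MRPL27 was the highest. It belongs to the central protuberance, and in bacteria its relative reaches the peptidyl transferase centre. MRPL27 had a level of 77.6 in the AZC + MG132 table and 41.5 in the parental table, with 45.5 in the CRISPR table. The log2 ratio after AZC + MG132 was 0.90 over all bins and 0.83 over coding bins, and it was uneven along the messenger, at 1.34 in the first 100 coding bins and 0.32 in the last 100. MRPL34, whose bacterial relative is one of the smallest ribosomal proteins, had a level of 8.01 in the AZC + MG132 table and 10.9 in the parental table, a log2 ratio of −0.45. MRPL36, a similarly small protein, had a level of 6.62 after AZC + MG132, 8.81 in the CRISPR table and 11.1 in the parental table, and was the member left out of this comparison because its depth was below the minimum. MRPL27 was thus higher and both small proteins were lower than in the parental table.

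MRPL12 makes up the flexible L7/L12 stalk, which recruits translation factors, and MRPL10 and MRPL11 form its base. MRPL11 had a level of 29.4 in the AZC + MG132 table and 39.99 in the parental table, a log2 ratio of −0.44 that shrank to −0.25 over coding bins. MRPL10 and MRPL12 had log2 ratios of 0.13 and 0.06. MRPL53, a large-subunit protein without a bacterial counterpart, had a level of 33.3 after AZC + MG132 and 21.3 in the parental table, a log2 ratio of 0.65 and 0.76 over coding bins. The log2 ratios of these 3 stalk proteins spread from −0.44 to 0.13.

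Proteins around the exit of the tunnel, through which the nascent chain leaves toward the inner membrane, had a median of 0.24 over 8 members, of which 6 were above 0. They include MRPL44 and MRPL45, and MRPL45 is known to anchor the ribosome to the membrane. MRPL44 had a level of 48.7 after AZC + MG132 and 35.1 in the parental table, a log2 ratio of 0.47, with −0.03 in the first and 0.84 in the last 100 coding bins. The central protuberance, which in mitochondria holds a structural transfer RNA in place of the bacterial 5S RNA, had a median of 0.23 over 7 members, with 5 above 0. Both groups were small, and the median of each lay inside the interquartile range of all members.

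Large-subunit proteins without a bacterial counterpart had the lowest ratios of the large subunit. MRPL37 had a level of 51.2 in the AZC + MG132 table, against 83.3 in the parental table and 87.5 in the CRISPR table. Its log2 ratio after AZC + MG132 was −0.70 over all bins and −0.88 over coding bins, with −0.88 and −0.98 in the first and last 100 coding bins. MRPL42 had a level of 34.7 after AZC + MG132 and 49.2 in the parental table, a log2 ratio of −0.50 and −0.67 over coding bins. MRPL43 lay at the other end, with a level of 32.99 after AZC + MG132 and 22.8 in the parental table, a log2 ratio of 0.53, although its last 100 coding bins were at −0.20. In MRPL37 and MRPL42 both sets of 100 coding bins were lower, whereas in MRPL43 the sets differed in sign. By origin, 30 of 45 members with a bacterial counterpart and 19 of 31 without one were above 0, with medians of 0.13 and 0.10. Over coding bins the order was the other way, with medians of 0.11 and 0.14.

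In the small subunit MRPS15, whose bacterial relative helps to fold the ribosomal RNA of the platform early in assembly, was the lowest of all members. MRPS15 had a level of 24.98 in the AZC + MG132 table and 46.9 in the parental table, with 41.7 in the CRISPR table. The log2 ratio after AZC + MG132 was −0.91 over all bins and over coding bins alike, with −0.77 and −0.99 in the first and last 100 coding bins. MRPS14, a protein of the head of the subunit, had a level of 37.8 after AZC + MG132 and 25.4 in the parental table, a log2 ratio of 0.57. Among the paralogs that share descent from bacterial S18, MRPS18A had a log2 ratio of 0.49, MRPS18B of 0.36 and MRPS18C of 0.51. MRPS18C occupies the bacterial site in the small subunit and had a level of 48.05 after AZC + MG132 and 33.7 in the parental table. The paralogs were thus all higher, by similar amounts. The small subunit as a whole had a median of 0.06 over all bins, with 16 of 26 above 0. The large subunit had a median of 0.13, with 33 of 50 above 0. Over coding bins the median was 0.13 in either subunit.

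**Figure D2:**
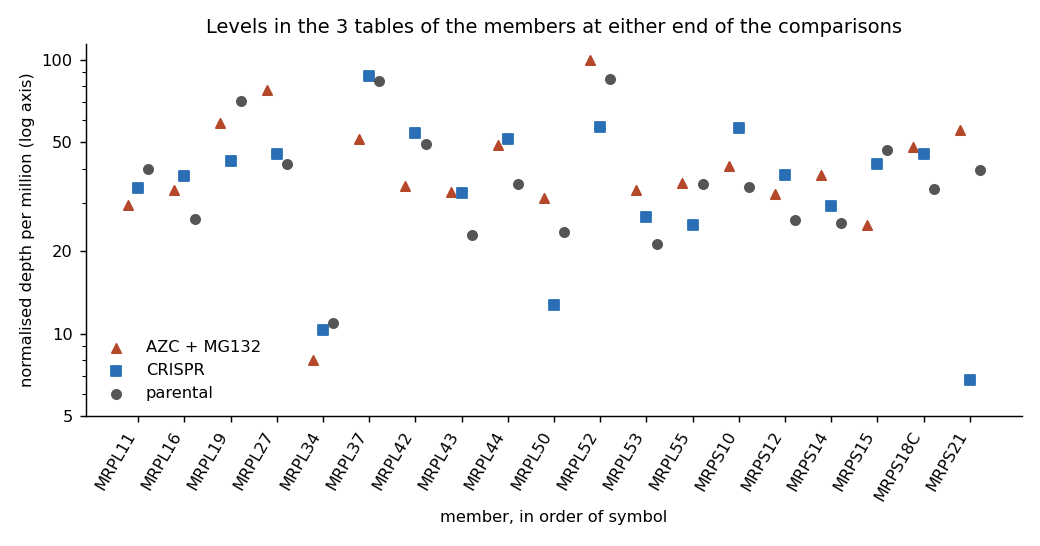
Level (normalised depth, log axis) in the AZC + MG132 table (triangles), the CRISPR table (squares) and the parental table (circles) of the members that were among the 5 highest or 5 lowest in either comparison, in order of symbol. Each point is 1 table with no replicate error. MRPS21 at 6.79 in the CRISPR table is the point farthest below its parental value of 39.6.

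Other gene groups of the mitochondrial translation system had medians on both sides of 0 after AZC + MG132. Among 5 further subunits whose names fall outside the MRPL and MRPS scheme, CHCHD1 had a level of 53.99 after AZC + MG132 and 28.1 in the parental table, a log2 ratio of 0.94, and DAP3, PTCD3, AURKAIP1 and GADD45GIP1 lay between −0.20 and 0.26. Of 13 translation factors 9 were compared, with a median of −0.07, 4 above 0 and none past 2-fold. Over coding bins their median was 0.04, with 5 above 0. TUFM, the elongation factor that brings transfer RNA to the mitochondrial ribosome, had a log2 ratio of −0.17, GFM1, the translocation factor, 0.01, and MTIF2, an initiation factor, −0.47. Of 26 assembly factors and enzymes that modify the mitochondrial ribosomal RNA 21 were compared, with a median of 0.10, 11 above 0 and none past 2-fold. MTERF4, which takes part in assembly of the large subunit, was the highest at 0.92 and NOA1, an assembly GTPase, the lowest at −0.76. Of 6 genes for the stability of mitochondrial messengers and membrane insertion 2 were above 0, with a median of −0.17. SLIRP, which binds mitochondrial messengers with LRPPRC, had a log2 ratio of 0.53 and LRPPRC one of −0.22.

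After AZC + MG132 more of a gene's coding footprints lay at the beginning of its coding sequence, in most members and in most genes. The 5′ share used here divides the mean depth in the first 20 coding bins of a gene by that in its 200 coding bins, and a 5′ shift is how much this share differs between the tables on the log2 scale. The median 5′ share of the members was 1.40 in the AZC + MG132 table and 0.772 in the parental table. Their median 5′ shift was 0.93, with 67 of 76 above 0, and 78.8% of all genes had a shift above 0 with a median of 0.59. The direction is therefore that of the whole table, with a larger median shift among the members. Over all genes the median 5′ share was 1.42 after AZC + MG132 and 0.934 in the parental table. The median share of the members was thus lower than that of all genes in the parental table and near it after AZC + MG132. Small-subunit members had a median shift of 1.05 with 25 of 26 above 0, large-subunit members one of 0.88 with 42 of 50 above 0, and cytosolic ribosomal protein genes one of 0.77 with 78 of 83 above 0.

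The largest 5′ shifts belonged to members whose first coding bins were almost empty in the parental table. MRPL40, of the central protuberance, had a 5′ share of 0.571 after AZC + MG132 and 0.00689 in the parental table, a shift of 6.37. MRPL34 had 1.35 after AZC + MG132 and 0.0862 in the parental table, a shift of 3.97. MRPS16, whose bacterial relative binds early in assembly, had 1.10 after AZC + MG132 and 0.116 in the parental table, a shift of 3.25, and MRPS33 had 0.795 and 0.180, a shift of 2.14. These ratios have a small denominator, and the shares themselves are the safer description. At the other end MRPL55 had a 5′ share of 0.117 after AZC + MG132 and 0.322 in the parental table, MRPL10 had 0.245 and 0.637, MRPL4 had 0.820 and 1.02, and MRPL11 had 0.544 and 0.655. The 3 proteins of the stalk and its base, MRPL10, MRPL11 and MRPL12, were all among the 9 members with a shift below 0.

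MRPS21 was far below its parental level in the CRISPR table, and the other members stayed within 2-fold. This comparison and the one above share the parental table, so they are not independent of each other. All 77 members were compared. Across all 7542 genes compared, 1.1% were higher by 2-fold or more and 1.3% were lower, together 2.4%, so 0 members higher and 1 lower is again near the background. The median log2 ratio of the members was 0.07 (interquartile range −0.17 to 0.24), against 0.0041 over all genes (−0.24 to 0.25), and 45 of 77 were above 0, with 50.4% of all genes above 0. Over coding bins the median was 0.07, with 42 of 77 above 0 and 50.6% of all genes above 0, and MRPS21 was again the 1 member past 2-fold, which 3.17% of all genes were. The summed level was 3318 in the CRISPR table and 3263 in the parental table. Both sets of 100 coding bins were above 0 in 24 members and below 0 in 22, and they differed in sign in 31. Over the 7542 genes compared the same counts were 2270, 2325 and 2947.

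MRPS21 is the counterpart of bacterial S21, a small protein on the platform of the small subunit. Its level was 6.79 in the CRISPR table and 39.6 in the parental table, with a level of 55.6 after AZC + MG132. The log2 ratio of CRISPR over parental was −2.54 over all bins, 5.83-fold lower, and −2.71 over coding bins. It was −2.81 in the first 100 and −2.60 in the last 100 coding bins, so the lower depth ran the whole length of the coding sequence. Of its coding bins 69.5% were covered in the CRISPR table and 100% in the parental one. The depth behind the value was 3981 in the CRISPR table, just above the minimum of 3696, and 18756 in the parental table. With the minimum raised 4-fold MRPS21 was not compared. The share of its depth in the 3′ UTR bins was 16.9% in the CRISPR table, 1.45% after AZC + MG132 and 1.80% in the parental table.

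**Figure D3:**
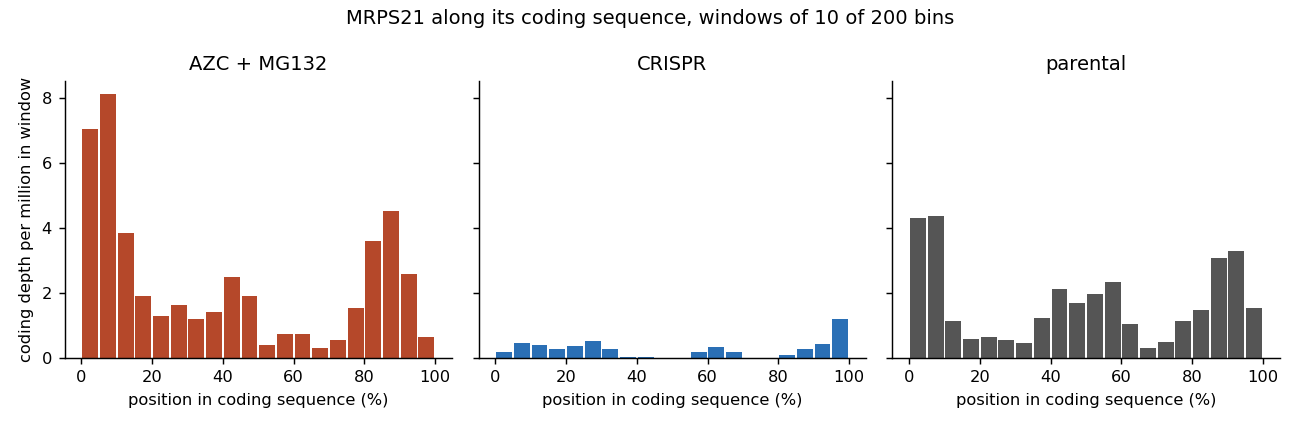
Coding depth of MRPS21, scaled to 1000000 of the table's coding depth, in 20 windows of 10 coding bins along its coding sequence, for the AZC + MG132, CRISPR and parental tables. The profiles after AZC + MG132 and in the parental table are highest near both ends, and all 20 windows of the CRISPR table lie below the parental ones, with 1.20 in the last as their highest.

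Further large-subunit members were lower in the CRISPR table without reaching 2-fold. MRPL50, a mitochondria-specific protein, had a level of 12.7 in the CRISPR table and 23.6 in the parental table, with 31.2 after AZC + MG132, and its CRISPR log2 ratio was −0.89, or −1.02 in the first 100 coding bins. MRPL19, whose bacterial relative forms a bridge between the subunits, had a level of 42.8 in the CRISPR table and 70.9 in the parental table, a log2 ratio of −0.73. MRPL52, of the central protuberance, had levels of 56.8 and 85.1 in these tables, a log2 ratio of −0.58. MRPL55 had levels of 24.9 and 35.2, a log2 ratio of −0.50. In MRPL50, MRPL19, MRPL52 and MRPL55 alike, both sets of 100 coding bins were below 0. The 3 proteins of the stalk and its base were also all below 0, at −0.46 for MRPL10, −0.24 for MRPL11 and −0.22 for MRPL12.

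The highest members in the CRISPR table came from both subunits. MRPS10, whose bacterial relative belongs to the head of the small subunit, had a level of 56.2 in the CRISPR table and 34.3 in the parental table, a log2 ratio of 0.71, at 1.17 in the first and 0.22 in the last 100 coding bins. MRPL44 had a level of 51.5 in the CRISPR table and 35.1 in the parental table, a log2 ratio of 0.55 with both sets of coding bins above 0. MRPS12, the counterpart of the bacterial decoding-site protein S12, had levels of 37.8 and 26.04 in these tables, a log2 ratio of 0.54, with −0.25 in the first and 0.999 in the last 100 coding bins. MRPL16, next to the peptidyl transferase centre in bacteria, had levels of 37.5 and 26.2, a log2 ratio of 0.52, and MRPL43 had levels of 32.5 and 22.8, a log2 ratio of 0.51. The sets of coding bins differed in sign in MRPS12 and MRPL43, and were both above 0 in MRPS10, MRPL44 and MRPL16. The small subunit had a median of 0.16 with 18 of 26 above 0, and the large subunit 0.0045 with 27 of 51 above 0.

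For CRISPR over parental, 8 translation factors were compared, with a median of −0.07 and none past 2-fold. TSFM, the exchange factor of TUFM, had a level of 20.8 in the CRISPR table and 38.5 in the parental table, a log2 ratio of −0.89. Of the assembly factors and rRNA-modifying enzymes 22 were compared, with a median of −0.05. MTERF4 was the only one 2-fold or more higher (log2 ratio 1.56). Its level was 21.05 in the CRISPR table and 7.16 in the parental table. MPV17L2, which is needed for assembly, was the only one 2-fold or more lower, with levels of 7.40 and 15.8 (−1.10). Both ratios rest on a depth not far above the minimum. It was 3392 for MTERF4 in the parental table and 4339 for MPV17L2 in the CRISPR table. All 5 subunits outside the naming scheme lay between −0.42 for GADD45GIP1 and 0.42 for CHCHD1. The 6 genes for messenger stability and insertion had a median of 0.05 with 3 above 0. Cytosolic ribosomal protein genes had a median of 0.05 with 53 of 83 above 0.

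The 5′ shift in the CRISPR table was small. Its median over the members was 0.16, with 48 of 77 above 0, and over all genes 0.05 with 53.2% above 0. MRPL40 again had the largest shift, 4.56, with a 5′ share of 0.163 in the CRISPR table and 0.00689 in the parental table. MRPL10 had the most negative one, −5.05, with 0.0192 in the CRISPR table and 0.637 in the parental table. MRPS6, MRPS2 and MRPS21 followed at −2.17, −1.49 and −1.08. At the positive end MRPL36 had a shift of 2.21, MRPS33 of 2.05 and MRPL57 of 1.87. The spread between members was wider than the shift of their median, the interquartile range being −0.21 to 0.69.

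Along the coding sequence, the mitochondrial ribosomal proteins had fewer footprints right after the first bins than the average gene, in all 3 tables. Coding bins 11 to 30, which cover the stretch after the first few percent of the coding sequence, had a median depth of 0.848 times the gene's coding mean after AZC + MG132, 0.652 in the CRISPR table and 0.537 in the parental table, over 76 members. Over 7062 genes the same medians were 1.18, 0.872 and 0.899. These bins were below the coding mean in 48 of 76 members after AZC + MG132, with 37.2% of all genes below it. They were below it in 64 of 76 members in the CRISPR table, with 59.1% of all genes, and in 65 of 76 in the parental table, with 58.8% of all genes. In all 3 tables together 44 of 76 members, or 57.9%, were below, with 23.8% of all genes. After AZC + MG132 stretches later in the coding sequence were lower still in the mean profile of the members. The bins were chosen after the profile had been seen, and these values are a description without a test.

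**Figure D4:**
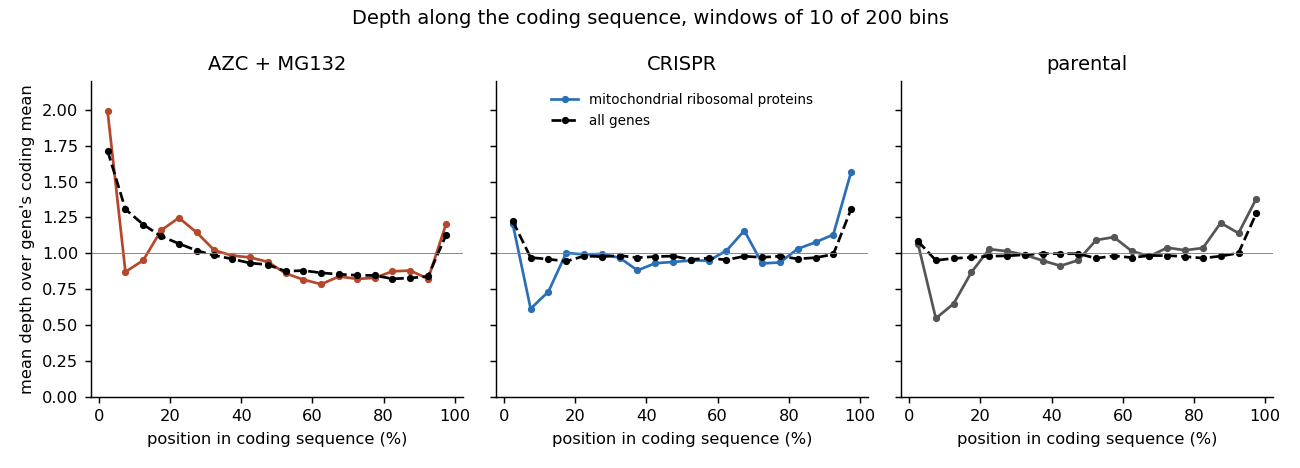
Mean depth along the coding sequence in windows of 10 of 200 bins, each gene scaled to its own coding mean, for 76 mitochondrial ribosomal proteins (solid, coloured) and 7062 genes (dashed, black) in the AZC + MG132, CRISPR and parental tables. The members dip in windows 2 and 3, to 0.546 times the coding mean at the lowest in the parental table. After AZC + MG132 these windows are at 0.871 and 0.951, and window 13 is lower, at 0.784. The first window is highest after AZC + MG132, at 1.99.

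The large subunit had medians of 0.774 after AZC + MG132, 0.662 in the CRISPR table and 0.521 in the parental table, and the small subunit 0.999, 0.603 and 0.569, so the order of the subunits was not the same in every table. All 7 proteins of the central protuberance were below the coding mean in the CRISPR and parental tables, with medians of 0.330 and 0.336. Among single members MRPL55 was nearly empty there in all 3 tables, with values of 0.0184 after AZC + MG132, 0.0384 in the CRISPR table and 0.0444 in the parental table. MRPL2 had 0.172, 0.245 and 0.0577 in the same tables, and MRPL27 had 0.410, 0.0999 and 0.159. MRPS21, MRPL43 and MRPL37 went the other way, with parental values of 1.64, 1.68 and 1.36. Members thus differed widely in how many footprints covered this stretch, and each of these 6 kept its side of the coding mean in all 3 tables.

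Gene groups with related properties showed less of the dip. Nuclear-encoded subunits of the respiratory chain and ATP synthase, which are also imported into mitochondria, had medians of 1.04 after AZC + MG132, 0.739 in the CRISPR table and 0.732 in the parental table. Cytosolic ribosomal protein genes had 1.26, 0.975 and 0.928, and translation factors of mitochondria had 1.60, 1.17 and 0.891. A bin covers a fixed share of the coding sequence, so the same bins lie closer to the start codon in a short messenger than in a long one. The part of coding length, of mappability and of targeting sequences in the dip was not tested.

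The deposited 5′ UTR bins could not be read as UTR occupancy in many members, because they hold the profile of the first coding bins a further time. The 5′ UTR profile was matched to the beginning of the coding profile by re-binning coding depth to the same sum, and a repeat was recorded where the correlation across bins was at least 0.8 in all 3 tables at the same offset, within 2 bins. Such a repeat was found in 25 of 77 members, or 32.5%, and in 8.99% of 7075 genes above the minimum in all tables. With the coding profile reversed it was found in 0 members and 0.113% of genes. The repeated stretch spanned a median of 74.95 and up to 163.9 of the 200 coding bins. In MRPL39 the correlation was 0.99 in each of the 3 tables, with the repeat starting at bin 3 and covering 131.9 coding bins in the AZC + MG132 table. MRPS22 and MRPL58, a peptidyl-tRNA hydrolase built into the large subunit, did not meet the rule, but their 5′ UTR bins held 101.9% to 103.9% of the coding depth in every table. A search of this kind can miss weaker repeats and can include chance matches, as the reversed profiles show.

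**Figure D5:**
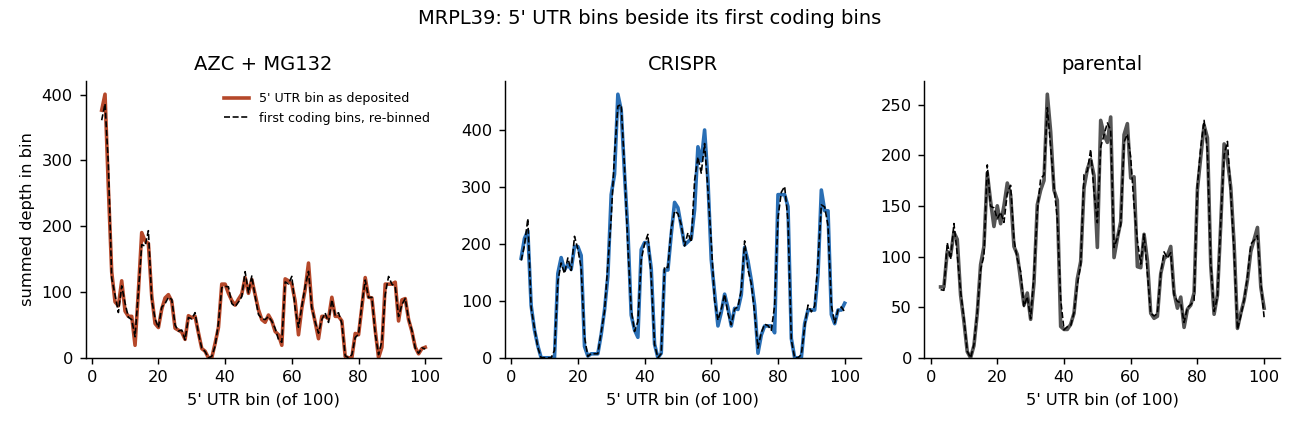
Summed depth in the 5′ UTR bins of MRPL39 as deposited (solid, coloured) and in its first 131.9 coding bins re-binned to the same number of points (dashed, black), for the AZC + MG132, CRISPR and parental tables. The solid and dashed lines follow each other in each table, with a correlation of 0.99 across bins.

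In repeated members the sum over 400 bins counts part of the coding depth again in all 3 tables, but not always to the same extent. The 5′ UTR bins of MRPL37 held 31.3% of its coding depth after AZC + MG132, 8.93% in the CRISPR table and 6.46% in the parental table. Those of MRPL39 held 81.4%, 69.6% and 81.1%. The repeat therefore need not cancel in a ratio over all bins, and coding values stand beside some of the sums above. The levels above are sums over all bins. MRPS22, MRPL58, MRPL54 and MRPL52 had the highest nominal 5′ UTR shares of depth after AZC + MG132, at 50.6%, 50.2%, 48.98% and 48.4%. Their log2 ratios over coding bins were 0.40, 0.19, 0.14 and 0.24 after AZC + MG132 and 0.10, −0.0046, −0.30 and −0.60 in the CRISPR table. The dip after the first coding bins was present in the 25 members with a repeat together with MRPS22 and MRPL58, at a parental median of 0.540 over these 27, and in the other 49, at 0.533. In 3′ UTR bins no such repeat was searched for. MRPL33, a small protein of the core, had 40.5% of its depth there after AZC + MG132, 17.8% in the CRISPR table and 18.2% in the parental table, and MRPL57 had 18.4%, 19.7% and 14.1%. The direction of MRPL33 differed between the bins used, since its log2 ratio after AZC + MG132 was 0.20 over all bins and −0.17 over coding bins. The labels do not say whether counting used the strand, so fragments shared with a pseudogene copy or an overlapping gene cannot be told apart.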

How the data were processed

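Ribosome footprints of 6 CHL-1 libraries were analysed as the 3 tables the authors deposited, 1 per condition, each pooling 2 libraries in a way the labels do not state. The submitters' processing notes name Bowtie2, TopHat2 and the build hg19. The deposited values are log2(depth + 1) over 400 bins per transcript, rounded to 2 decimals, as read from the values themselves. In coding bins each deposited value also contained that of the table's preceding transcript, which was subtracted.

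The members and the gene lists were chosen with earlier results of these data known. Levels were scaled to 1000000 per table, log2 ratios used a pseudocount of 0.5, and no test was made because each table pools its 2 libraries with no column for either. Named were the members past 2-fold, the 5 highest and 5 lowest of each comparison, the 4 largest and 4 smallest 5′ shifts, the 4 highest 5′ UTR and 2 highest 3′ UTR shares, the MRPS18 paralogs, the 5 subunits outside the naming scheme and the most abundant or past 2-fold genes of the pathway lists. Other genes, including those of the dip and the repeat, were chosen after their values were seen. Levels per coding base were planned and could not be computed, since coding lengths were not used here. The edit at SNORD50A/B could not be checked from these footprints.

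RefSeq promoters of build GRCh38.p14 matched 69 members; MRPL2, MRPL10, MRPL13, MRPL15, MRPL21, MRPL23, MRPL35 and MRPS28 had no entry. Python 3.11.15, numpy 2.4.6, pandas 2.3.3 and matplotlib 3.10.9 were used. The recovery of depths, the log2 ratios and the 5′ shift were tested on simulated data. The search for repeated 5′ UTR bins, the dip, the promoter motifs and the look at neighbouring genes were not. Alternatives covered the scaling, the pseudocount, the level minimum, the bins used and the choice of transcript.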

Additional observations from a re-analysis of the deposited data

How the results depend on the processing

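Across 11 results over the whole group 81 alternatives were computed. In 73 the value stayed within the limits set for it and in 8 it moved. For medians the limits were an interval over the members, which are not replicates of a condition. Only the medians of log2 ratios and 5′ shifts were checked for a change of sign, and none changed. After AZC + MG132 the median log2 ratio of the members, 0.12 over all bins, was 0.26 in the first 100 coding bins and 0.0045 in the last 100. In the first 100 coding bins 1 member, MRPL27, was 2-fold or more higher after AZC + MG132. In the CRISPR table MRPS10 alone was 2-fold or more higher in these bins, and 2 members, MRPS21 and MRPL50, were lower. The share of all genes past 2-fold in these bins is not given here, so no excess over the background can be read from the counts. With a level minimum 4 times higher 0 members were lower in the CRISPR table, because MRPS21 was then not compared. Alternatives for the dip were chosen after seeing the data: over coding bins 6 to 30 its median was 1.01 in the AZC + MG132 table, and over coding bins 11 to 40 it was 0.66 in the parental table, with 1.24 and 0.931 over all genes. The cause of the differences between bins was not tested. No paired analysis was possible because the tables hold no column for a library, and for the same reason no replicate could be left out. Of 67 log2 ratios of single members, 27 had the other sign under at least 1 alternative and 40 under none. In 9 of the 27 this held also outside the sets of 100 coding bins, as for MRPL33 (0.20, and −0.17 over coding bins) and MRPL57 (0.27, and −0.0015) after AZC + MG132 and for MRPL34 (−0.08, and 0.07) and MRPL4 (0.06, and −0.12) in the CRISPR table. The CRISPR log2 ratio of MRPS21 lay between −2.81 and −2.25 under the 9 alternatives that compared it. With few footprints in the first coding bins, as in MRPL40, a 5′ shift rests on little depth.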

Other observations

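MRPS21 lies on chromosome 1, and its neighbours in the RefSeq gene order were looked at after its value had been seen. Of 20 genes on each side 22 were compared in the CRISPR table, with a median log2 ratio of −0.12 over parental, 14 below 0 (63.6%), 1 lower by 2-fold or more (4.55%) and 0 higher. Over all 7542 genes compared, 49.6% were below 0 and 1.3% were lower by 2-fold or more. The 22 included H2AC18 and H2AC19, whose levels of 1914.3 and 1914.1 in the CRISPR table were nearly equal, so not all may be independent. The 1 lower gene was ECM1, which encodes a secreted matrix protein. Its level was 6.59 in the CRISPR table and 34.2 in the parental table, a log2 ratio of −2.38. As its CRISPR level was below the 6.79 of MRPS21, its depth there was likewise just above the minimum. ECM1 had a level of 38.2 after AZC + MG132. CA14, a membrane-bound carbonic anhydrase on the other side of MRPS21, had a level of 6.25 in the CRISPR table and 17.3 in the parental table, but was below the minimum for comparison. Between and around them PRPF3, a splicing factor, had a log2 ratio of 0.02, RPRD2 of −0.29, TARS2, the mitochondrial threonyl-tRNA synthetase, of −0.63, and MCL1, an inhibitor of apoptosis, of −0.32.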
